A study of Homo sapiens with 6 samples.

Results

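The data described here are the messenger RNA levels of 10 human genes for the first steps of mucin-type O-glycosylation. These are among 20308 genes measured by RNA-seq in LNCaP-AI cells. LNCaP-AI is an established castration-resistant prostate cancer line derived from LNCaP and was grown without androgen in every sample. Cells carrying a stable lentiviral hairpin against METTL1 (shMETTL1, 3 libraries) were compared with cells carrying a scrambled hairpin (shscramble, 3 libraries), so androgen deprivation was common to both groups and METTL1, the catalytic subunit of an RNA 7-methylguanosine methyltransferase, was the gene that differed by design. The study lists a single hairpin sequence against METTL1, and the sources do not state whether the lines were clones or whether the replicates were separate infections, so the p-values measure only the spread between these libraries. The 10 genes were GALNT1, GALNT2, GALNT3, GALNT4, GALNT7, GALNT10, GALNT11 and GALNT12, with C1GALT1 and C1GALT1C1. The set was built around GALNT10, which was chosen by its difference between these same 6 libraries, and the other genes were added for their role. The difference in GALNT10 is therefore given as a description without a test, and no further library was at hand in which to test it.

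Mucin-type O-glycosylation starts in the Golgi, where a polypeptide N-acetylgalactosaminyltransferase (GALNT) moves N-acetylgalactosamine from its UDP-sugar donor to a serine or threonine. The many GALNT enzymes overlap in their protein targets. Some act on bare peptide, and others, GALNT7 and GALNT10 among them, prefer peptides that already carry a sugar nearby. C1GALT1 then adds galactose to form the core 1 disaccharide and needs the chaperone C1GALT1C1 (Cosmc) for its own folding, after which sialyltransferases or the branching enzyme GCNT1 extend or cap the chain. Secretory epithelia such as the prostate luminal layer carry these glycans on mucins and on many membrane receptors.

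GALNT10 and GALNT2 were the genes of the set that separated the groups on both scales of the files, and their promoter windows are shown for that reason. The windows are RefSeq sequences on GRCh38.p14, from 250 bases before to 50 bases after the transcript start, on the plus strand. Capitals mark the GC box, GGGCGG or its reverse complement CCGCCC.
GALNT10, chr5:154190483-154190782: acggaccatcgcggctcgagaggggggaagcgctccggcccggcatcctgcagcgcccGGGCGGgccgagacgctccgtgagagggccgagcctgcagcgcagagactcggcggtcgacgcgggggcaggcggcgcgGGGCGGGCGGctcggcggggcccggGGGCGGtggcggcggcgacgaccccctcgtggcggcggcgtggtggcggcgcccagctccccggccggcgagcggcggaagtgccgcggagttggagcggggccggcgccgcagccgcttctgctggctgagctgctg
GALNT2, chr1:230066988-230067287: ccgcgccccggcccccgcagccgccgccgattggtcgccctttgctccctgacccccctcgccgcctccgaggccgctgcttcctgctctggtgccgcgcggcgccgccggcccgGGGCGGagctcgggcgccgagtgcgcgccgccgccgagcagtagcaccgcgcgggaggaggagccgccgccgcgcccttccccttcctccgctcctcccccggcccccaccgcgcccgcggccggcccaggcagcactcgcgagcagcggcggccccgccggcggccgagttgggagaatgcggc
Both windows are rich in G and C, with 81.0% and 82.0% for GALNT10 and GALNT2 against a median of 58.7% over 35116 windows of the same length. Both contain 51 CpG dinucleotides. The GALNT10 window held 4 GC box matches, of which a pair overlaps, and the GALNT2 window held 1. At least 1 GC box was found in 45.0% of all windows. A CCAAT box (CCAAT or ATTGG) occurred once in the GALNT2 window and in 34.6% of all windows, and no match to these letters lay in the GALNT10 window. The core CCACG or CGTGG occurred 2 times in the GALNT10 window, in none for GALNT2, and in 38.1% of all windows. No match to the amino acid response element TGATGNAA, on either strand, was found in the windows of the 9 genes that had one, and 3.62% of all windows held it. A letter match is not evidence that a factor binds there. In GENCODE 29 on GRCh38, GALNT10 spans chromosome 5 from 154190730 to 154420984 on the plus strand, and GALNT2 spans chromosome 1 from 230057990 to 230282124 on the plus strand. The GALNT2 window thus begins inside the annotated gene, at a RefSeq start downstream of the outermost GENCODE start. The deposited values were made on hg19, so these coordinates serve only to locate the genes.

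The libraries held between 3389897 and 3604835 estimated counts, within 1.06-fold of each other. METTL1 had 8.35, 10.5 and 8.18 FPKM in shMETTL1 cells, against 13.9, 18.5 and 21.0 FPKM in shscramble cells, which leaves 50.7% of the control mean. Its log2 fold change was -0.93 by limma on log2(FPKM + 0.5) and -1.36 by edgeR on the estimated counts (edgeR adjusted p = 0.0368, limma adjusted p = 0.127). The knockdown was therefore partial at the RNA level. One control library, shscramble replicate 2, stood apart, since its removal moved the genes called by limma to 189 in place of 15 and those called by edgeR to 1989 in place of 712. Where its removal changed a call by edgeR, this is given with the list concerned. All 9 prostate luminal markers were present, with a summed level of 1955 to 2218 FPKM in shMETTL1 cells and 2472 to 2532 FPKM in shscramble cells. The basal, endothelial and neuroendocrine lists summed to at most 4.73 FPKM in any library, with KRT5, CDH5, KDR, CHGA, INSM1 and NCAM1 listed at 0 throughout. The immune list summed to 5.997 to 8.11 FPKM in shMETTL1 cells and 11.8 to 16.8 FPKM in shscramble cells, mostly CD68, with PTPRC and CD3E listed at 0. The fibroblast list summed to 5.31 to 11.2 FPKM in shMETTL1 cells and 7.94 to 13.7 FPKM in shscramble cells, mostly COL1A1, with DCN and LUM listed at 0. The part of these marker differences in the values below was not tested.

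GALNT10 was at 54.6, 48.1 and 43.4 FPKM in shMETTL1 cells, against 26.5, 22.2 and 23.4 FPKM in shscramble cells. The lowest shMETTL1 library lay far above the highest shscramble library. In a bulk library, more cells that express a gene and more of its RNA per cell cannot be told apart. The means were 48.7 ± 5.60 FPKM and 24.0 ± 2.24 FPKM (SD, n = 3 each), a ratio of 2.02. On the log2(FPKM + 0.5) scale the difference was 1.00 (SE 0.16), which ranked 229th from the highest of 12156 genes. The estimated counts of GALNT10 were 443, 458 and 362 in shMETTL1 cells and 219, 241 and 227 in shscramble cells, a ratio of means of 1.84. Its fold by edgeR was 0.83 on the log2 scale, ranked 243rd of 11248 genes. FPKM divides the count by a transcript length that Cufflinks-type programs estimate in each library, and the estimated count per FPKM of GALNT10 varied from 8.13 to 10.8 over the 6 libraries. The FPKM and count folds of a gene therefore need not be equal. With any one library left out the limma log2 fold change of GALNT10 stayed between 0.92 and 1.08, and it was 0.95 without shscramble replicate 2.

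GALNT2, a broadly expressed enzyme that acts on bare peptides and is known for its part in lipoprotein metabolism, differed in the same direction. Its level was 22.4, 29.4 and 26.2 FPKM in shMETTL1 cells, against 15.2, 15.3 and 12.7 FPKM in shscramble cells. These values do not overlap between the groups. The means were 26.0 ± 3.53 FPKM and 14.4 ± 1.47 FPKM (SD, n = 3 each), a ratio of 1.80. GALNT2 rose by edgeR on the estimated counts (log2 fold change 0.60, adjusted p = 0.00961), where the libraries held 310, 332 and 317 counts in shMETTL1 cells and 198, 223 and 192 counts in shscramble cells. By limma on FPKM it did not pass (log2 fold change 0.83, SE 0.18, adjusted p = 0.109). The edgeR call was lost without shMETTL1 replicate 2 (adjusted p = 0.0600) and without shscramble replicate 3 (adjusted p = 0.0647), with a log2 fold change between 0.56 and 0.62 over all 6 leave-outs.

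Leaving GALNT10 aside, limma called none of the 8 tested genes of the set, where it called 0.123% of all genes. An unadjusted p under 0.05 by limma was found for 1 of the 8, GALNT2, beside 1723 of all 12156 tested genes. By edgeR and by DESeq2 the 1 gene called of the 8 was again GALNT2, higher in shMETTL1 cells, where edgeR called 2.68% of all genes higher. FPKM groups that did not overlap, with shMETTL1 higher, were found for 10.5% of all tested genes, and in the set for GALNT10 and GALNT2. Because GALNT10 was chosen on this contrast, nothing is read from its place in that count.

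**Figure D1:**
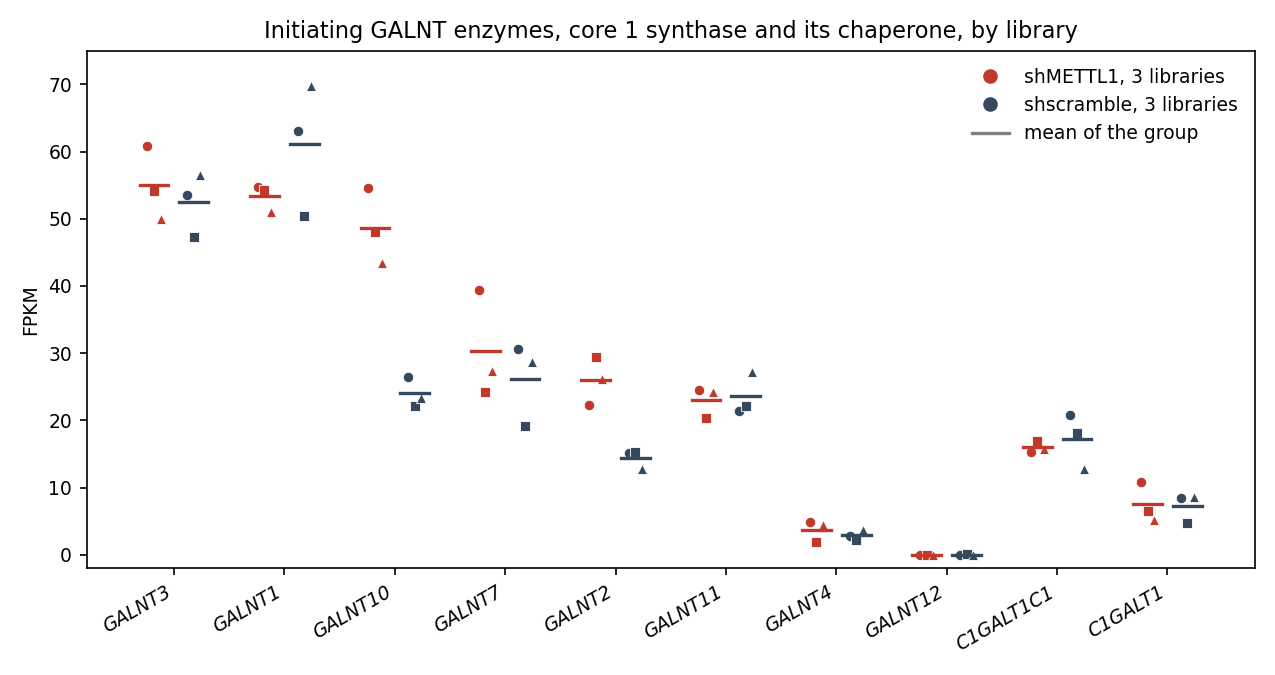
FPKM (vertical axis) of the 10 genes in each library, with shMETTL1 on the left of each pair and shscramble on the right; circles, squares and triangles are replicates 1, 2 and 3 and the line is the group mean. GALNT10 and GALNT2 are the genes whose groups do not overlap, with GALNT10 at 43.4 to 54.6 FPKM in shMETTL1 cells and 22.2 to 26.5 FPKM in shscramble cells.

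The most abundant initiators were GALNT3 and GALNT1. GALNT3, known for glycosylating and so protecting the phosphate hormone FGF23, was at 60.9, 54.1 and 49.95 FPKM in shMETTL1 cells, against 53.6, 47.3 and 56.5 FPKM in shscramble cells. The groups overlapped, and the log2 fold change was 0.07 (SE 0.15, limma adjusted p = 0.871). GALNT1, which acts on a wide range of bare peptides, was at 54.7, 54.4 and 51.1 FPKM in shMETTL1 cells, against 63.1, 50.5 and 69.8 FPKM in shscramble cells. Its log2 fold change was -0.18 (SE 0.16, limma adjusted p = 0.627), with overlapping groups and a wider spread among the controls. By edgeR the log2 fold changes were -0.05 for GALNT3 and -0.11 for GALNT1, with adjusted p-values of 0.878 and 0.603. The direction of GALNT3 thus differed between the scales, at values close to 0 on each.

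GALNT7, the relative of GALNT10 that likewise prefers peptides already carrying a sugar, did not separate the groups. Its FPKM values were 39.5, 24.2 and 27.4 in shMETTL1 cells and 30.6, 19.2 and 28.7 in shscramble cells. The log2 fold change was 0.21 (SE 0.24, limma adjusted p = 0.725), and edgeR gave 0.22 with an adjusted p of 0.456. GALNT11, which glycosylates the linkers of lipoprotein receptors, was at 24.5, 20.3 and 24.2 FPKM in shMETTL1 cells, against 21.5, 22.2 and 27.2 FPKM in shscramble cells. On that scale its log2 fold change was -0.03 (SE 0.17, limma adjusted p = 0.950). Its estimated counts of 193, 189 and 211 in shMETTL1 cells lay above the 140, 176 and 175 in shscramble cells, with a log2 fold change of 0.22 by edgeR (adjusted p = 0.375). The direction of GALNT11 depends on the scale, and neither passed its test.

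GALNT4, a gene whose coding sequence sits in a single exon, overlaps other transcribed units. On GRCh38 it occupies chromosome 12 from 89519408 to 89524806 on the minus strand, inside the readthrough gene POC1B-GALNT4 (89519408 to 89526262) and within the span of POC1B (89419718 to 89526024), both on the same strand. Reads there can be assigned to more than one gene, so its values are uncertain. GALNT4 was listed at 4.94, 1.91 and 4.40 FPKM in shMETTL1 cells, against 2.74, 2.20 and 3.69 FPKM in shscramble cells. In the same libraries POC1B-GALNT4 was listed at 0.000106, 2.32 and 0.494 FPKM in shMETTL1 cells, against 1.20, 2.49 and 0.477 FPKM in shscramble cells. The library with the lowest GALNT4 among the shMETTL1 cells had the highest readthrough value of that group. Summed, the pair gave 4.94, 4.23 and 4.90 FPKM in shMETTL1 cells and 3.94, 4.68 and 4.17 FPKM in shscramble cells, overlapping ranges with an SD of 0.396 and 0.379 in place of 1.61 and 0.757 for GALNT4 alone. The log2 fold change of GALNT4 was 0.27 (SE 0.38, limma adjusted p = 0.774). GALNT12, an enzyme best known from the colon, was listed at 0 in all shMETTL1 libraries and in 2 shscramble libraries, with 0.0783 FPKM in shscramble replicate 2, and was too low to test.

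C1GALT1, the core 1 galactosyltransferase, differed between the scales more than any other gene of the set. Its FPKM was 10.9, 6.46 and 5.18 in shMETTL1 cells, against 8.49, 4.81 and 8.67 in shscramble cells, a log2 fold change of 0.01 (SE 0.33, limma adjusted p = 0.991). Its estimated counts were 145.5, 71.9 and 71.4 in shMETTL1 cells, against 65.4, 66.0 and 63.3 in shscramble cells, and the groups did not overlap. By edgeR the log2 fold change was 0.52, with an adjusted p of 0.248. It was 0.09 without shMETTL1 replicate 1, the library with 145.5 counts, so that 1 library carried most of the difference on counts. The estimated count per FPKM was 13.4, 11.1 and 13.8 in shMETTL1 cells, against 7.70, 13.7 and 7.30 in shscramble cells, a 1.89-fold range that exceeded that of the other 8 tested genes. Leaving GALNT10 aside, the count groups did not overlap, with shMETTL1 higher, for GALNT2, GALNT11 and C1GALT1 among 8 tested genes of the set. The share over all tested genes was 13.8%. C1GALT1C1, the chaperone, was at 15.3, 17.0 and 15.8 FPKM in shMETTL1 cells, against 20.8, 18.1 and 12.8 FPKM in shscramble cells. Its groups overlapped, the log2 fold change was -0.08 (SE 0.21, limma adjusted p = 0.899), and its count per FPKM varied by 1.02-fold only.

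**Figure D2:**
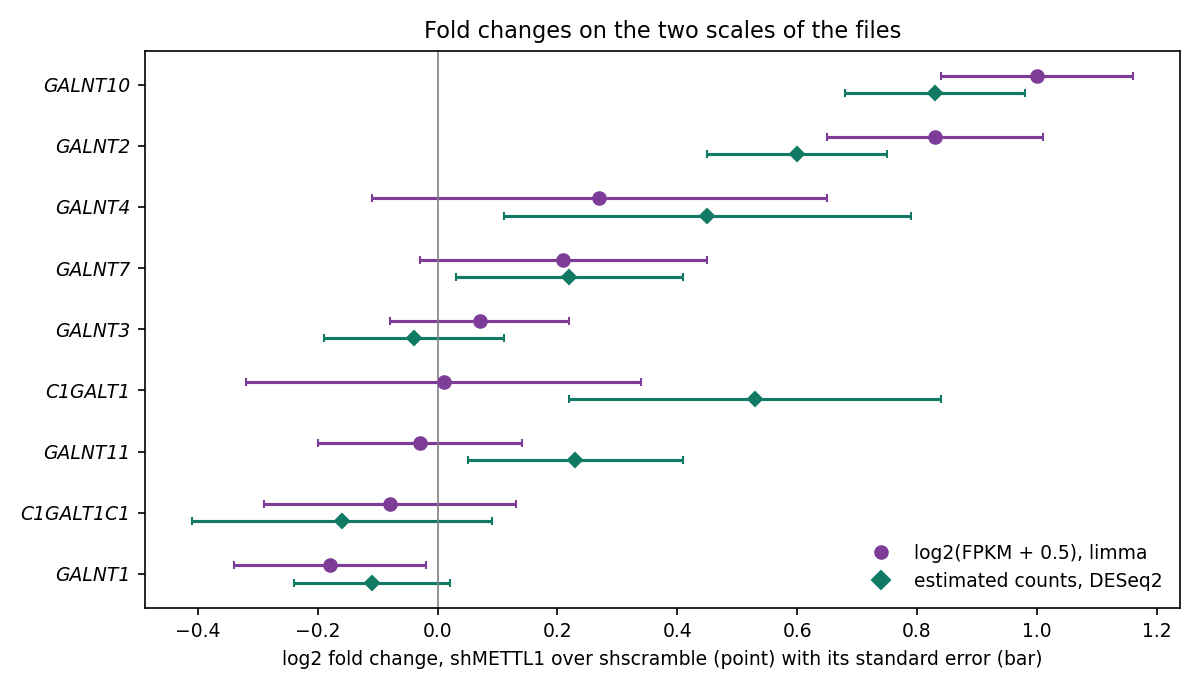
Log2 fold change of shMETTL1 over shscramble (horizontal axis; point with its standard error) for the 9 tested genes, from limma on log2(FPKM + 0.5) (circles) and DESeq2 on the rounded estimated counts (diamonds). GALNT10 (1.00 and 0.83) and GALNT2 (0.83 and 0.60) lie to the right on both scales, while C1GALT1 lies at 0.01 on FPKM and 0.53 on counts.

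The order of the levels was as follows, FPKM being scaled per transcript length and so comparable between genes. In shMETTL1 cells the means ran from GALNT3 (55.0 FPKM) through GALNT1 (53.4), GALNT10 (48.7), GALNT7 (30.3), GALNT2 (26.0), GALNT11 (23.0), C1GALT1C1 (16.0) and C1GALT1 (7.50) to GALNT4 (3.75), with GALNT12 listed at 0. GALNT3, GALNT1 and GALNT10 overlapped with their neighbours in that order, and so did GALNT7, GALNT2 and GALNT11, whereas GALNT10 was clear of GALNT7. In shscramble cells GALNT1 (61.1 FPKM) and GALNT3 (52.5) led with overlapping ranges, and the next were GALNT7 (26.2), GALNT10 (24.0) and GALNT11 (23.6), which overlapped as well. C1GALT1C1 (17.2 FPKM) and GALNT2 (14.4) followed and overlapped, and C1GALT1 (7.32) and GALNT4 (2.88) were each clear of the next. GALNT10 was thus among the 3 highest in shMETTL1 cells and level with GALNT7 and GALNT11 in shscramble cells.

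All 20 GALNT genes were in the tables, 10 of them at a mean of at least 0.5 FPKM, and 5 were listed at 0 in every library. Summed over the 20, the level was 279.8, 256.7 and 245.4 FPKM in shMETTL1 cells, against 231.4, 199.8 and 246.7 FPKM in shscramble cells, with overlapping groups. GALNT10 made up 19.5%, 18.7% and 17.7% of that sum in shMETTL1 cells, against 11.5%, 11.1% and 9.48% in shscramble cells, a difference of 7.95 percentage points. GALNT2 made up 7.99%, 11.5% and 10.7% in shMETTL1 cells, against 6.56%, 7.66% and 5.15% in shscramble cells. GALNT1 held 20.5% ± 0.855 of the sum in shMETTL1 cells and 26.9% ± 1.53 in shscramble cells (SD, n = 3 each). GALNT3 held 21.1% ± 0.705 in shMETTL1 cells and 23.2% ± 0.411 in shscramble cells. Shares of a sum are not independent of one another, so a larger GALNT10 share lowers the rest by construction. Of the GALNT genes outside the set, GALNT18 was at 12.3, 13.7 and 11.9 FPKM in shMETTL1 cells, against 10.4, 10.4 and 13.8 FPKM in shscramble cells, and GALNT14 was at 5.51, 9.59 and 6.06 FPKM in shMETTL1 cells, against 5.60, 8.60 and 10.5 FPKM in shscramble cells. Neither passed a test (limma adjusted p = 0.797 and 0.789), and GALNT13, at no more than 1.53 FPKM in any library, had a limma adjusted p of 0.653.

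**Figure D3:**
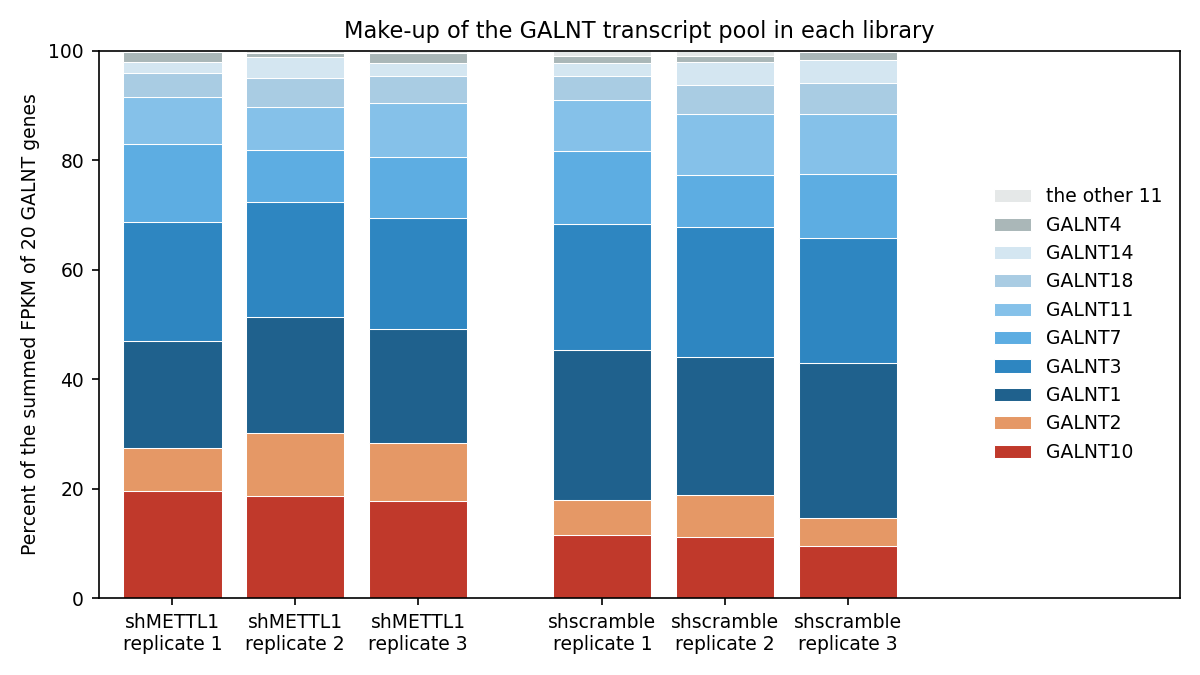
Percent of the summed FPKM of 20 GALNT genes (vertical axis) taken by each gene in each library, with the 3 shMETTL1 libraries on the left and the 3 shscramble libraries on the right. The GALNT10 block at the base spans 17.7% to 19.5% in shMETTL1 cells and 9.48% to 11.5% in shscramble cells.

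The genes around initiation were examined as lists of 109 genes in all, of which 108 were in the tables and 71 were high enough for limma. Limma called none of the 71. An unadjusted p below 0.05 was found for 9 of them, 5 positive and 4 negative, beside 1723 of all 12156 tested genes. By edgeR 2 of 67 were called higher (VLDLR and COG5) and 3 lower (UAP1, LRP1 and TMTC3), against 2.68% higher and 3.65% lower among all genes, and DESeq2 gave the same numbers. FPKM groups did not overlap for 7 genes with shMETTL1 higher and 3 with shMETTL1 lower, against 10.5% and 9.33% of all tested genes. On the estimated counts they did not overlap for 15 genes with shMETTL1 higher and 6 with shMETTL1 lower, against 13.8% and 11.1% of all tested genes. Without shscramble replicate 2, edgeR called 15 genes of the set and lists in place of 7, with 8 gained and 0 lost. Both totals include GALNT10, which was chosen on this contrast, so nothing is read from its call. Among all genes the same fit called 1989 of 11371, against 712 of 11248 with all 6 libraries, so calls rose widely and not in these lists alone. The median log2 fold change of the 71 was 0.11, beside 0.02 over all tested genes, and 52 of the 71 were positive, beside 6376 of 12156.

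Of the enzymes that supply nucleotide sugars, UAP1, the pyrophosphorylase that makes UDP-N-acetylglucosamine and can make the GALNT donor itself, fell by edgeR (log2 fold change -0.54, adjusted p = 0.00637). It was at 51.3, 52.9 and 49.1 FPKM in shMETTL1 cells, against 69.5, 74.8 and 72.6 FPKM in shscramble cells. The values within each group were close together and the groups far apart, although limma did not call it (log2 fold change -0.50, SE 0.13, adjusted p = 0.164). The edgeR call of UAP1 held in all 6 leave-outs, with adjusted p up to 0.0484. UGP2, which makes UDP-glucose, was at 34.1, 37.9 and 35.02 FPKM in shMETTL1 cells, against 61.6, 39.7 and 51.1 FPKM in shscramble cells. It did not pass either test (limma adjusted p = 0.293, edgeR adjusted p = 0.155), but edgeR called it without shscramble replicate 2 (log2 fold change -0.41, adjusted p = 0.0333). SLC35A3, a Golgi carrier of UDP-N-acetylglucosamine, was likewise called by edgeR only without that library (log2 fold change -0.43, adjusted p = 0.0270, against -0.26 and 0.363 with all 6 libraries). Limma called no tested gene of this list, and edgeR called UAP1 alone over all 6 libraries. Of the 16 tested genes, 10 had a positive log2 fold change by limma and 6 a negative one. After UAP1 and UGP2, the smallest limma p-values were those of NANS (log2 fold change 0.34, adjusted p = 0.452) and SLC35A2 (0.43, adjusted p = 0.529). The list's median log2 fold change was 0.05. GNE, which begins sialic acid synthesis, was listed at 0 in all 6 libraries. Whether a listed 0, here or elsewhere, is absence or a failed estimate cannot be told from these values.

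Among the enzymes that branch or cap the core, 7 of 14 were tested and none was called by limma, or by edgeR over all 6 libraries. Without shscramble replicate 2 edgeR called ST6GALNAC4, a sialyltransferase of this pathway (log2 fold change 0.90, adjusted p = 0.0117, against 0.57 and 0.172 with all 6 libraries). ST3GAL1, the sialyltransferase that caps core 1, was the most abundant, at 292, 329 and 335 FPKM in shMETTL1 cells, against 225, 268 and 228 FPKM in shscramble cells. Its groups did not overlap (log2 fold change 0.41, SE 0.13, limma adjusted p = 0.229), and edgeR gave 0.20 with an adjusted p of 0.292. ST3GAL2, a related sialyltransferase, was at 4.23, 0.849 and 1.77 FPKM in shMETTL1 cells, against 3.21, 6.55 and 5.62 FPKM in shscramble cells, with overlap through shMETTL1 replicate 1. Its log2 fold change was -1.15 (SE 0.47, limma adjusted p = 0.326), and the edgeR adjusted p was 0.0977. The median of this list was 0.30 on the log2 FPKM scale and 0.01 by edgeR.

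Mucins themselves were scarce. Of 22 mucins and mucin-domain proteins listed, 21 were in the tables, 6 were listed at 0 in every library and 5 were tested. CD164, a sialomucin of endosomes and the cell surface, was at 89.1, 80.9 and 67.1 FPKM in shMETTL1 cells, against 60.5, 59.5 and 57.1 FPKM in shscramble cells. Its groups did not overlap, yet it passed neither test (log2 fold change 0.41, SE 0.15, limma adjusted p = 0.280, edgeR adjusted p = 0.141). MUC20, a membrane mucin, was at 0.763, 0.991 and 3.24 FPKM in shMETTL1 cells, against 0.157, 0.823 and 0.176 FPKM in shscramble cells, which overlap. Its estimated counts of 14.3, 17.2 and 17.5 in shMETTL1 cells did not overlap the 4.16, 7.96 and 4.65 in shscramble cells, and it passed neither test (limma log2 fold change 1.19, SE 0.55, adjusted p = 0.367, and edgeR 1.46, adjusted p = 0.0818). MUC1, the membrane mucin of many epithelia, did not exceed 2.20 FPKM in any library. The list's median log2 fold change was 0.41 over its 5 tested genes.

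Lipoprotein receptors, whose linkers are targets of GALNT11, gave calls in both directions by edgeR. LRP1, a large endocytic receptor, fell by edgeR (log2 fold change -0.79, adjusted p = 0.00240), with 4.03, 4.92 and 4.90 FPKM in shMETTL1 cells, against 7.83, 9.93 and 10.4 FPKM in shscramble cells. It was called in all 6 edgeR leave-outs, and limma gave -0.94 (SE 0.23, adjusted p = 0.133). VLDLR, a receptor for reelin and triglyceride-rich lipoproteins, rose by edgeR (log2 fold change 0.89, adjusted p = 0.0216), with 4.64, 4.84 and 4.88 FPKM in shMETTL1 cells, against 2.16, 3.01 and 2.80 FPKM in shscramble cells. Its call survived the removal of shscramble replicate 2 but of none of the other 5 libraries, where the adjusted p reached 0.0964.

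Enzymes that begin other glycans gave few calls. TMTC3, an O-mannosyltransferase of cadherins, was lower by edgeR (log2 fold change -0.47, adjusted p = 0.0337), a call that held only without shscramble replicate 2 among the 6 leave-outs, where the adjusted p reached 0.137, although its FPKM of 7.14, 12.6 and 9.30 in shMETTL1 cells overlapped the 10.2, 13.4 and 13.5 in shscramble cells. It was the only gene called by edgeR among 14 tested initiators of other O-linked glycans. OGT, which places N-acetylglucosamine on nuclear and cytosolic proteins, was at 142, 158 and 162 FPKM in shMETTL1 cells, against 132, 138 and 121 FPKM in shscramble cells (limma adjusted p = 0.426). For N-glycan initiation, none of 13 tested genes was called over all 6 libraries, the median log2 fold change was 0.25, and RPN1, an oligosaccharyltransferase subunit, was at 191, 143 and 168 FPKM in shMETTL1 cells, against 102, 146.5 and 111 FPKM in shscramble cells (limma adjusted p = 0.272). Without shscramble replicate 2 edgeR called 4 of the 13, all higher, beside 873 of 11371 genes called higher in that fit. DPAGT1, which starts the lipid-linked precursor, had a log2 fold change of 0.79 (adjusted p = 0.00636). The others were the oligosaccharyltransferase subunits DAD1 (0.58, adjusted p = 0.0151), TMEM258 (1.08, adjusted p = 0.0274) and RPN2 (0.30, adjusted p = 0.0377). With all 6 libraries these 4 had edgeR adjusted p-values from 0.119 to 0.482. Of the COG tethering complex and GOLPH3, which keep Golgi glycosyltransferases in place, COG5 rose by edgeR (log2 fold change 0.64, adjusted p = 0.0220). COG5 was at 17.5, 21.7 and 16.8 FPKM in shMETTL1 cells, against 12.3, 10.5 and 14.9 FPKM in shscramble cells, and its call held in 3 of 6 leave-outs, being lost without shMETTL1 replicate 1 (adjusted p = 0.121), shMETTL1 replicate 2 (0.0733) or shscramble replicate 3 (0.0898).

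**Figure D4:**
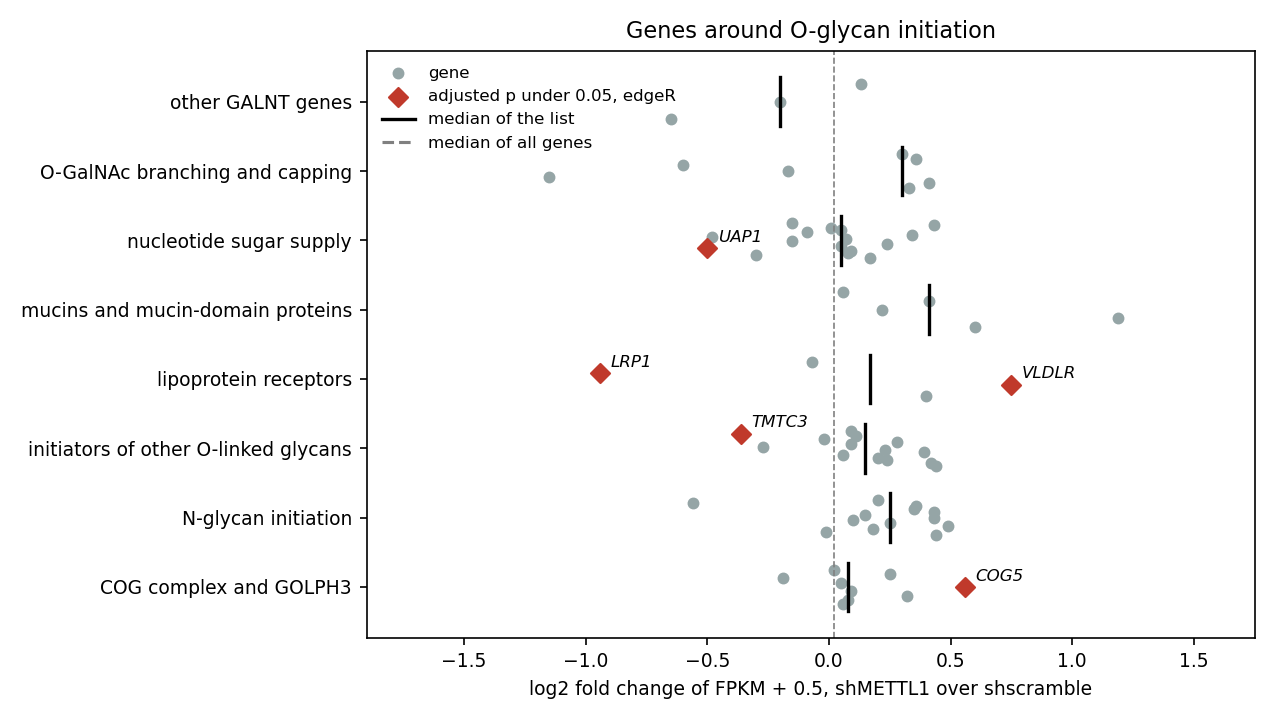
Log2 fold change of FPKM + 0.5, shMETTL1 over shscramble (horizontal axis), for the tested genes of each list (points), with the list's median (black line) and the median of all genes (dashed line); diamonds are genes called by edgeR on the estimated counts. UAP1, LRP1 and TMTC3 lie to the left and VLDLR and COG5 to the right, while the list medians lie between -0.20 and 0.41.

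The genes whose pattern over the 6 libraries was most like that of GALNT10, by Pearson correlation of log2(FPKM + 0.5) among 11541 genes with a mean of at least 1 FPKM, were NIPAL2 (r = 0.994), COLEC12 (0.991), GABARAPL1 (0.991), FAM204A (0.991) and GRIN3A (0.989). The libraries form 2 groups of 3, so each of these values rests mainly on the difference between the groups, and they are a description. COLEC12, a scavenger receptor, was at 44.2, 41.6 and 41.1 FPKM in shMETTL1 cells, against 28.3, 23.2 and 24.0 FPKM in shscramble cells. GABARAPL1, an autophagy protein of the ATG8 family, was at 43.4, 40.3 and 40.8 FPKM in shMETTL1 cells, against 27.6, 23.9 and 26.2 FPKM in shscramble cells. GRIN3A, a glutamate receptor subunit, was at 16.1, 14.9 and 11.9 FPKM in shMETTL1 cells, against 4.33, 4.21 and 4.07 FPKM in shscramble cells. GALNT2 stood 259th in that order (r = 0.896). Among the shMETTL1 libraries its FPKM was highest in replicate 2, where that of GALNT10 was highest in replicate 1. On the estimated counts both were highest in replicate 2, at 332 for GALNT2 and 458 for GALNT10.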

How the data were processed

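RNA-seq was performed on total RNA of LNCaP-AI cells, with 150-base paired reads on an Illumina HiSeq instrument per the series' design text. The authors deposited 1 table per library, with an FPKM and an estimated count for each Ensembl gene. Build hg19 and the tools HISAT2 2.0.4, cutadapt 1.9.3, Cuffdiff and Cufflinks are credited to the submitters' processing notes, and the annotation and counting settings are not given in the sources used here. The deposited FPKM values are scaled by transcript length and by library size. The deposited estimated counts are mostly fractional, with 1.80% to 2.51% of values above 0 within 0.001 of a whole number, and their near-equal totals leave the true sequencing depth unknown. Symbols were found for 19434 of 20308 identifiers (95.7%), and 5195 genes were listed at 0 throughout.

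Genes with a mean of at least 0.5 FPKM were compared with limma 3.58.1 (R 4.3.3, trend and robust) on log2(FPKM + 0.5), and p-values were adjusted by Benjamini and Hochberg over all 12156 genes, with a call at 0.05. The pseudocount understates the change of low genes. The estimated counts, rounded to whole numbers, were tested with edgeR 4.0.16 (quasi-likelihood, TMM) over 11248 genes and with DESeq2 1.42.0. Called without a tool named beside it means limma. All were tested on simulated data first. The alternatives were other pseudocounts, filters, scalings, a replicate block and each library left out.

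The genes and lists were chosen with earlier results of these data known. Named beside the 10 genes and METTL1 were, in each list, called genes, genes with the smallest p (at most 4), and the 5 genes most correlated with GALNT10. TMTC3, which edgeR called, GNE, the genes that edgeR called only without shscramble replicate 2 and the genes overlapping GALNT4 were named after their values were seen. CD24 and PECAM1 were not analysed here, and some list genes are not reported by name. The promoter windows are from RefSeq, with 9 of the 10 genes matched by symbol and GALNT4 without one. Gene positions are from GENCODE 29.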

Additional observations from a re-analysis of the deposited data

How the results depend on the processing

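The count of called genes depended on the scale and the test. Against 15 genes with limma on FPKM, 4 were called with no filter on low values, and on the estimated counts 712 with edgeR and TMM, 709 with edgeR and DESeq2 size factors, 1094 with edgeR and no filter, 713 with DESeq2 and 718 with limma on log2 CPM. Leaving out 1 library gave 3 to 189 genes by limma and 270 to 1989 by edgeR, with the highest count of each without shscramble replicate 2. Among the 10 genes and the lists around them, 0 were called by limma, 7 by edgeR with either scaling, by DESeq2 and by limma on log2 CPM, and 9 by edgeR with no filter. Leave-outs gave 0 to 1 by limma and 3 to 15 by edgeR. These counts include GALNT10, which was chosen on this contrast. With the replicate number as a block, 6 genes were called by limma and 1015 by edgeR, and 8 of these genes by edgeR. The labels do not state whether the numbers pair the samples. Deviations from the group means of same-numbered libraries correlated at 0, 0.05 and -0.02, which cannot settle it with 3 libraries a group. The block left GALNT10 at 1.00 by limma and 0.82 by edgeR. The log2 fold change of GALNT10 was 0.83 in the other fits to counts, and its share of the GALNT sum differed by 7.35 to 8.43 percentage points over the leave-outs. The sign changes fell on GALNT3, GALNT11, C1GALT1, C1GALT1C1 and GALNT18, which none of these fits called. On counts GALNT3 moved to -0.05 with edgeR under either scaling and limma on log2 CPM, -0.04 with DESeq2 and with edgeR without a filter, and -0.06 with the replicate block. GALNT11 moved to 0.22 with edgeR under either scaling and 0.23 with DESeq2, limma on log2 CPM, edgeR without a filter and the replicate block. C1GALT1 moved to -0.01 with median-ratio scaling and -0.02 with quantile normalization. Over the leave-outs of limma, C1GALT1 ran from -0.27 to 0.23, C1GALT1C1 from -0.27 to 0.07, GALNT11 from -0.10 to 0.07 and GALNT3 from -0.01 to 0.13. Over those of edgeR, C1GALT1C1 ran from -0.33 to 0.04, GALNT18 from -0.06 to 0.19 and GALNT3 from -0.17 to 0.08. The cause of these shifts was not tested. In 572 comparisons with a main fit for single genes other than GALNT10, 495 kept their direction and side of the threshold. A call was gained in 39 and lost in 15, and the sign changed in 23. Some edgeR fits were compared with both the limma and the edgeR main fit, so these are not 572 separate values. GALNT2, UAP1, VLDLR, LRP1, TMTC3 and COG5 each gave 6 of the gains, all from fits to counts set against limma on FPKM. Counting error is not separable here, because the depth behind the estimated counts is unknown.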

Other observations

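Lists outside the O-GalNAc pathway gave no calls by limma, and those of other glycan enzymes and of Golgi tethering had mostly positive values. The lipoprotein receptors had 2 positive and 2 negative values among 4 tested genes. In N-glycan initiation 11 of 13 tested genes had a positive log2 fold change, in the initiators of other O-linked glycans 11 of 14, and in the COG complex with GOLPH3 8 of 9, beside 6376 of 12156 over all tested genes. Their medians were 0.25, 0.15 and 0.08 on the log2 FPKM scale and 0.15, 0.12 and 0.17 by edgeR, beside 0.02 over all genes by limma. Within the oligosaccharyltransferase, TUSC3 stood on the other side, at 18.3, 17.0 and 7.59 FPKM in shMETTL1 cells, against 15.1, 20.9 and 24.8 FPKM in shscramble cells, a log2 fold change of -0.56 (limma adjusted p = 0.481). No test of these lists was made.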
